A study of Mus musculus with 8 samples.

Results

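The regions described here are places at which LRH-1 (NR5A2), a nuclear receptor, was found bound 4 h after the ovulatory signal but not before it, and where no open chromatin was called at either time. They were chosen by the positions of listed peaks, as LRH-1 peaks of the list at 4 h that overlap, by at least 1 bp, no LRH-1 peak of the list at 0 h and no FAIRE peak of either time. This rule found 2844 of the 9413 LRH-1 peaks at 4 h (30.2%). Among the 5473 LRH-1 peaks present only at 4 h (gained peaks), they made up 52%. The rule used the overlaps themselves, so these shares describe the choice and carry no test.

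The groups were wild-type (LRH-1 +/+) C57BL/6 mice at 4 h after hCG (+OvS) and the same kind of mice at 0 h (-OvS). All mice were 22 to 25 days old and had received 5 IU of equine chorionic gonadotropin, which drives follicle growth. The +OvS mice had also received, 44 h later, 5 IU of human chorionic gonadotropin, which stands in for the surge of luteinising hormone. LRH-1 binding was measured by chromatin immunoprecipitation (ChIP) and open chromatin by FAIRE, with 1 deposited peak list per assay and time although the labels state 2 replicates. Per the labels' protocols, FAIRE used granulosa cells obtained through ovarian puncture and the ChIP used pieces of whole ovary (n = 5 per condition). The source name of the ChIP samples says granulosa cells instead. If the ChIP was of whole ovary, a LRH-1 peak without a FAIRE peak can lie in DNA bound in another ovarian cell type. This cannot be told apart from binding outside open chromatin in granulosa cells.

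LRH-1 is an orphan nuclear receptor that binds DNA as a monomer, at an extended hormone-receptor site. In the mouse ovary it is made in granulosa cells and luteal cells, and mouse knockouts have tied it to steroid synthesis, ovulation and luteal function. FAIRE recovers DNA that is not held by nucleosomes and so stays in the water phase when cross-linked chromatin is extracted with phenol. A site without a FAIRE peak is one that did not reach the list, and the lists do not say that its chromatin was closed. Peak numbers in the FAIRE names run past the number of rows by 621 at 4 h and by 575 at 0 h, so some numbered FAIRE peaks are not in the lists and could not be used in the choice.

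With 1 list per time there are no replicates, and all comparisons between groups of peaks are descriptions of these lists. Intervals of shares are exact 95% binomial (Clopper-Pearson) intervals and cover counting error only. All positions are in mouse build mm9 with starts counted from 1. No mm9 sequence or gene annotation was used here, so sites are given by position, without genes, motifs or printed sequence.

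The gained LRH-1 sites without FAIRE were weak, narrow peaks for the list at 4 h, as were gained peaks at a FAIRE peak of 0 h only. Their fold enrichment, the authors' own value for each peak, had a median of 4.97 (quartiles 4.48 and 5.56) and ran from 2.89 to 9.99. Their −log10 q, used as the score of a peak, had a median of 6.96 (quartiles 5.56 and 8.86). Gained peaks at a FAIRE peak of 0 h only had a median fold of 4.97, −log10 q of 6.78 and width of 275 bp. The medians were 5.03, 7.29 and 290 bp over all gained peaks, and 5.31, 8.35 and 316 bp over the list at 4 h. The median width of the sites without FAIRE was 279 bp. Of these 2844 sites, 441 (15.5%, interval 14.2 to 16.9) had 233 bp, the narrowest width in the list at 4 h. That width was less common among gained peaks at a FAIRE peak of 4 h only, at 99 of 1266 (7.82%, interval 6.4 to 9.44), and among persistent LRH-1 peaks without FAIRE, which were present at both times, at 79 of 1368 (5.77%, interval 4.6 to 7.15). It was about as common among gained peaks at a FAIRE peak of 0 h only, at 70 of 415 (16.9%, interval 13.4 to 20.8). Of the lost LRH-1 peaks without FAIRE, which were seen only at 0 h, 185 of 971 (19.1%, interval 16.6 to 21.7) had the narrowest width of their own list, 219 bp.

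Ranked by score, the list at 4 h was cut into 10 equal groups. Of the 2844 sites, 2007 (70.6%, interval 68.9 to 72.2) fell into the 5 worst-scoring groups, 468 into the worst and 29 into the best. Gained peaks as a whole also lay toward the worse groups. Of all 5473, those 5 groups held 633, 671, 705, 746 and 792, from better to worse, and the best group held 117. With only the best 5886 LRH-1 peaks at 4 h, as many as the list at 0 h holds, 1274 sites met the rule.

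Reads behind each site could be recovered. The caller's fold enrichment and p-value at a summit are both functions of the number of extended reads piled up there and of the number expected from the background. Solved together, they gave a whole pileup for all 9413 peaks at 4 h and all 5886 at 0 h, each matching the deposited −log10 p within 0.0002. The background values then came out as whole reads per 10 kb for all 8700 peaks at 4 h and all 5237 at 0 h that lay above the lowest value, within 0.02 reads. That lowest value, which the caller takes from the whole genome, was 103.8 reads per 10 kb at both times. The lists at 4 h and 0 h thus rest on the same genome-wide read density, provided the caller was given the same genome size for both. What differed was the narrowest peak width, 233 bp at 4 h and 219 bp at 0 h, and with it the lowest background at a summit, 2.42 reads at 4 h and 2.27 reads at 0 h, a ratio of 1.06.

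The gained sites without FAIRE had a median of 20 reads at the summit (quartiles 17 and 23, range 12 to 64) against a median background of 3.08 reads. Gained peaks at a FAIRE peak of 4 h only had a median of 22 reads (quartiles 19 and 27). Gained peaks at FAIRE peaks of both times also had a median of 22 (quartiles 19 and 26), and those at a FAIRE peak of 0 h only had 20 (quartiles 18 and 23). Persistent LRH-1 peaks without FAIRE had a median of 25 reads at 4 h (quartiles 20 and 31). Lost LRH-1 peaks without FAIRE had a median of 19 reads at 0 h (quartiles 17 and 22), not scaled to 4 h. The gained sites without FAIRE thus resembled the lost sites without FAIRE and the gained sites whose FAIRE peak was listed at 0 h only, and lay below the persistent sites, although the quartiles of all these groups overlap. Absence from the other list is part of the rule for gained and lost peaks, and in the list at 4 h gained peaks were 117 of the best-scoring group, beside 824 persistent ones, and 792 of the worst, beside 150 persistent ones.

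**Figure D1:**
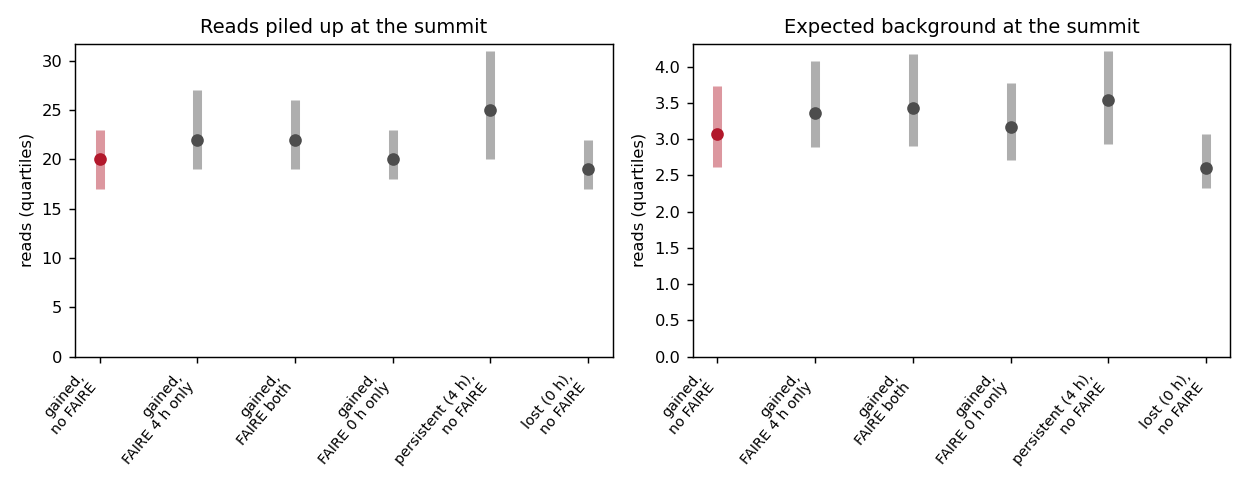
Reads piled up at the summit (left) and reads expected from the background (right) for 6 groups of LRH-1 peaks. Points are medians and bars run from the lower to the upper quartile over peaks. The 2844 gained sites without FAIRE, in red, have a median of 20 reads over 3.08, against 25 over 3.54 for persistent sites without FAIRE at 4 h.

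The local background around the sites varied with the group and with the pileup. It had a median of 132 reads per 10 kb at the gained sites without FAIRE, 144.5 at gained peaks with FAIRE at 4 h only, 136 at those with FAIRE at 0 h only and 152 at persistent peaks without FAIRE. Lost peaks without FAIRE had 119 in their own list. The lowest, genome-wide value applied to 381 of the 2844 sites (13.4%, interval 12.2 to 14.7), against 82 of 1266 gained peaks with FAIRE at 4 h only (6.48%, interval 5.18 to 7.98) and 42 of 415 with FAIRE at 0 h only (10.1%, interval 7.39 to 13.4). It applied to 76 of 1368 persistent peaks without FAIRE (5.56%, interval 4.4 to 6.9) and to 186 of 971 lost peaks without FAIRE (19.2%, interval 16.7 to 21.8).

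At equal pileups the order against persistent peaks turned round. Of the 16 pileups from 15 to 30 reads, the median background of the gained sites without FAIRE was lower than that of persistent peaks without FAIRE in 3 and higher in 13. At 25 reads, for example, it was 3.68 at 96 gained sites without FAIRE and 3.43 at 74 persistent ones. Against gained peaks with FAIRE at 4 h only it was lower in 10 and higher in 6, and against those with FAIRE at 0 h only it was lower in 9 and higher in 7. The sources used here do not give whether the background came from a control library or from the ChIP library itself. In the second case the reads of a peak count in its own background.

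The recovered reads also show how far a site had to lie below its pileup at 4 h to be absent from the list at 0 h. With the background of each site scaled to 0 h and the lowest −log10 p of the list at 0 h (5.63) as its entry, the largest pileup that would have stayed out had a median of 12 reads. The pileup at 4 h, scaled to 0 h, was a median of 1.47 times that number (quartiles 1.33 and 1.64). For 846 of the 2844 sites (29.7%, interval 28.1 to 31.5), the exact 95% Poisson interval of the scaled pileup lay wholly above it, against 35.4% of all 5473 gained peaks and 578 of the 1266 gained peaks with FAIRE at 4 h only (45.7%, interval 42.9 to 48.4). Gained peaks with FAIRE at 0 h only had 125 of 415 (30.1%, interval 25.7 to 34.8), close to the sites without FAIRE, and those with FAIRE at both times had 390 of 948 (41.1%, interval 38 to 44.3). For the other gained sites without FAIRE, the interval reached down to a pileup that the list at 0 h would have missed. The entry matters: with the −log10 p that 10.0% of the peaks at 0 h fall short of (8.53) in its place, the count was 187 (6.58%, interval 5.69 to 7.55), against 10.1% of all gained peaks. Pileups at 0 h in the gained sites themselves were not measured, since only peaks are listed. These counts are no test of a gain, since the sites were chosen for being listed at 4 h and not at 0 h. The intervals leave out counting error at 0 h. Scaling used the ratio of lowest backgrounds, 1.06, while the local background at persistent peaks without FAIRE had a median ratio of 1.2.

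Where a LRH-1 peak without FAIRE was present at both times, the reads recovered from the 2 lists can be set side by side. The ratios of pileup and of background given here were not scaled by the 1.06 between the lists. The 1368 persistent peaks without FAIRE had a median of 25 reads at 4 h and 21 at 0 h, and the ratio within a site had a median of 1.16 (quartiles 0.95 and 1.4). The 327 persistent peaks with FAIRE at 4 h only had a median ratio of 1.45, and the 873 with FAIRE at 0 h only had 0.967. The local background at the same sites was also higher at 4 h, with a median ratio of 1.2 at persistent peaks without FAIRE, 1.35 at those with FAIRE at 4 h only and 1.12 at those with FAIRE at 0 h only. At persistent peaks without FAIRE and at those with FAIRE at 0 h only, the median ratio of the pileup was thus below that of the background.

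Sites without FAIRE were more frequent among weak peaks, whether gained or persistent. In the best-scoring of the 10 groups, 29 of 117 gained peaks (24.8%, interval 17.3 to 33.6) and 183 of 824 persistent peaks (22.2%, interval 19.4 to 25.2) had no FAIRE peak. In the worst-scoring, 468 of 792 gained peaks (59.1%, interval 55.6 to 62.5) and 61 of 150 persistent peaks (40.7%, interval 32.7 to 49) had none. The gained share was the higher in 10 of 10 groups, by 2.58 to 18.5 percentage points. Over all groups, 52% of gained peaks and 34.7% of persistent peaks had no FAIRE peak. If the persistent peaks had been spread over the 10 groups as the gained ones were, 40.8% of them would have had none. Compared at equal pileups from 16 to 40 reads, the gained share was the higher at 20 of 25. It was higher at each pileup from 16 to 30 and lower at 31, 32, 36, 37 and 38.

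**Figure D2:**
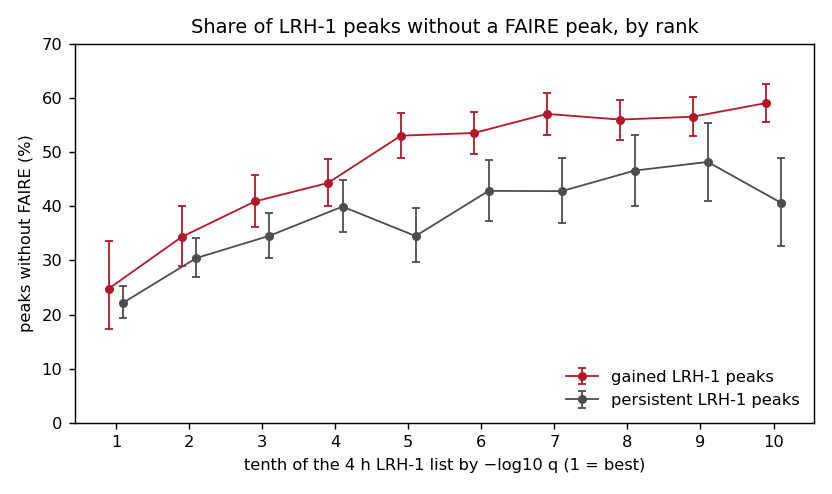
Share of LRH-1 peaks at 4 h without a FAIRE peak of either time (%), in 10 equal groups of the list by −log10 q, for gained (red) and persistent (grey) peaks. Bars are exact 95% binomial intervals. The gained share runs from 24.8% in the best group to 59.1% in the worst and lies above the persistent one in each group.

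The 10 best-scoring sites show what the strongest members are like. The best, on chromosome X from 101211463 to 101211834, had 63 reads at its summit (exact 95% Poisson interval 48.4 to 80.6) and a fold enrichment of 9.99. It lay 346 bp from a FAIRE peak of 0 h with a score of 49.7, near the lower end of that list, and 737 bp from a LRH-1 peak of 0 h. The next, on chromosome 5 from 125615024 to 125615389, had 47 reads (interval 34.5 to 62.5) and was 9.37-fold enriched, with the nearest FAIRE peak 5820 bp and the nearest LRH-1 peak of 0 h 29910 bp away. The site on chromosome 18 from 60819617 to 60819955 had 62 reads over a background of 8.2 (6.85-fold) and lay 130 bp from a FAIRE peak of 0 h and 304 bp from a LRH-1 peak of 0 h. The best site on chromosome 8, from 3577446 to 3577826, had 39 reads over 3.08 (9.81-fold) and lay 17698 bp from a FAIRE peak and 157022 bp from any LRH-1 peak of 0 h.

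Some of these strong sites stood alone and others stood beside older sites. The site on chromosome 13 from 51495427 to 51495851 had 41 reads (9.11-fold), with no FAIRE peak within 71164 bp and no LRH-1 peak of 0 h within 233173 bp. The site on chromosome 17 from 47959975 to 47960328 had 38 reads (9.51-fold) and was 73619 bp from a FAIRE peak but 8316 bp from a LRH-1 peak of 0 h. On chromosome 12, the site from 16867498 to 16867982 had 48 reads (7.16-fold) and lay 322 bp from a FAIRE peak of 4 h and 1127 bp from a LRH-1 peak of 0 h. The remaining 3 lay on chromosome 18 from 35000863 to 35001289, on chromosome 2 from 75481117 to 75482273 and on chromosome 6 from 144984053 to 144984375, with 41, 52 and 64 reads. In all, 3 of the 10 had a FAIRE peak within 1 kb and 4 had a LRH-1 peak of 0 h within 2 kb, while 2 lay over 50 kb from any FAIRE peak. All 10 had a scaled pileup interval above what the list at 0 h would have missed at its lowest entry. They were picked for the highest scores at 4 h, so this follows largely from the choice and carries no test.

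Most of the sites lay kilobases away from any listed FAIRE peak. The gap to the nearest FAIRE peak of either time had a median of 11218 bp (quartiles 4016 and 25320 bp). FAIRE peaks lay within 1 kb of 302 sites (10.6%) and within 10 kb of 1324 sites, and 1520 sites (53.4%, interval 51.6 to 55.3) lay farther than 10 kb from any. Persistent peaks without FAIRE lay somewhat closer, with a median of 9228 bp and 652 of 1368 (47.7%, interval 45 to 50.3) farther than 10 kb. Lost peaks without FAIRE had a median of 10444 bp and 498 of 971 (51.3%, interval 48.1 to 54.5) farther than 10 kb. The nearest FAIRE peak belonged to the list at 4 h for 1460 sites (51.3%, interval 49.5 to 53.2) and to the list at 0 h for 1382, and 2 sites had one of each list at the same gap. The list at 4 h is also the longer one, with 22791 FAIRE peaks against 21431 at 0 h.

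**Figure D3:**
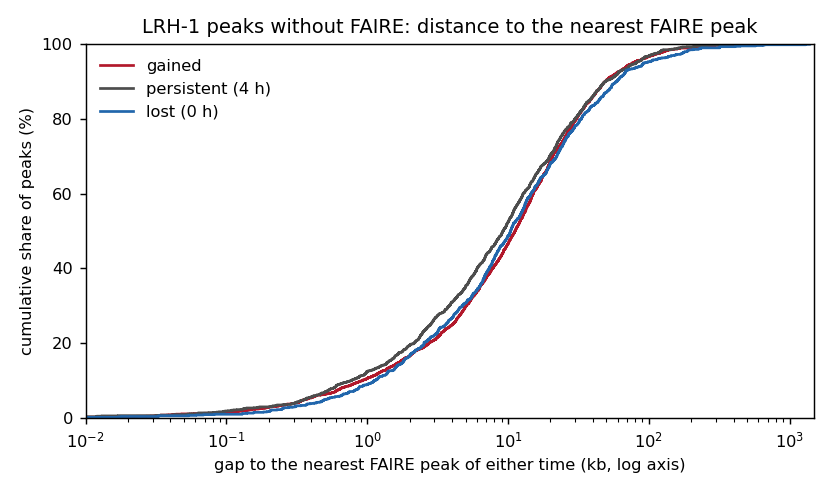
Cumulative share (%) of LRH-1 peaks without FAIRE by the gap to the nearest FAIRE peak of either time (kb, log axis), for gained, persistent and lost peaks. The 3 curves run close together, with medians of 11218, 9228 and 10444 bp.

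The rule has a threshold at 1 bp of overlap, and few sites lay at it. The sites just inside the choice were 1 bp from a FAIRE peak of 4 h on chromosome 9 (77561222 to 77561473, 21 reads) and on chromosome 8 (113558193 to 113558441, 17 reads), 3 bp on chromosome 2 (77366053 to 77366285, 19 reads), 4 bp on chromosome 11 (19819590 to 19819911, 17 reads) and 7 bp from a FAIRE peak of 0 h on chromosome 17 (24358316 to 24358676, 17 reads). Gained peaks just outside it overlapped a FAIRE peak by 2 bp on chromosome 15 (82986750 to 82986983, 21 reads), 3 bp on chromosome 7 (28293698 to 28294101, 29 reads), 5 bp on chromosome 9 (100542893 to 100543191, 17 reads), and 8 and 10 bp on chromosome 5 (65196869 to 65197210, 18 reads, and 114814629 to 114814983, 21 reads). A FAIRE peak lay within 50 bp of 32 sites, and 25 gained peaks were kept out by an overlap of at most 50 bp.

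Among themselves, the sites differed in background with the distance from listed FAIRE peaks, and little in pileup. The 302 sites within 1 kb of a FAIRE peak had a median of 21 reads over a background of 3.52, a median fold of 4.74, and 11 of them (3.64%, interval 1.83 to 6.42) had the genome-wide background. Between 1 and 10 kb lay 1022 sites, with a median of 21 reads over 3.4 and 6.95% at the genome-wide background. Between 10 and 50 kb, 1244 sites had a median of 19 reads over 2.9, with 17% at that background. Beyond 50 kb, 276 sites had a median of 19 reads over 2.59, a median fold of 5.27, and 88 of them (31.9%, interval 26.4 to 37.7) had the genome-wide background. The fold enrichment was thus higher far from FAIRE peaks while the pileup was not, and the background by which it is divided was lower there.

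**Figure D4:**
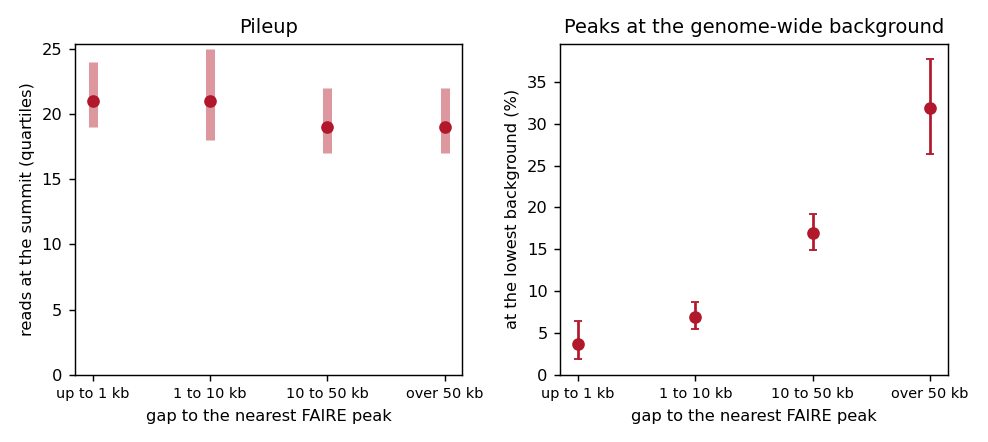
The 2844 gained LRH-1 sites without FAIRE, by the gap to the nearest FAIRE peak. Left, reads at the summit (points are medians, bars run between quartiles); on the right is the share of sites at the genome-wide background (%) with exact 95% binomial intervals, from 3.64% within 1 kb to 31.9% beyond 50 kb.

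The 5 sites farthest from any FAIRE peak had between 17 and 30 reads at their summits. The farthest, on chromosome 9 from 17306346 to 17306578, had 18 reads and lay 789434 bp from a FAIRE peak and 2312920 bp from a LRH-1 peak of 0 h. The site on chromosome 6 from 70097777 to 70098034 had 23 reads and a gap of 565928 bp. On chromosome X, the site from 123299912 to 123300166 had 30 reads over a background of 5.87 and lay 5892930 bp from any LRH-1 peak of 0 h. The other pair on chromosome X, from 11495298 to 11495530 and from 11578154 to 11578386, had 17 and 18 reads and share the same nearest FAIRE peak.

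Few of the gained sites lay beside LRH-1 peaks of 0 h. A LRH-1 peak of 0 h lay within 500 bp of 40 sites (1.41%, interval 1.01 to 1.91), within 1 kb of 63 (2.22%, interval 1.71 to 2.83) and within 10 kb of 372 (13.1%, interval 11.9 to 14.4). For gained peaks with FAIRE at 4 h only, the shares were 1.26% within 1 kb and 11.8% within 10 kb (interval 10.1 to 13.8), and for those with FAIRE at both times 2.85% and 13% (interval 10.9 to 15.3). A lost LRH-1 peak, one seen only at 0 h, lay within 1 kb of 32 of the 2844 sites. Gained peaks with FAIRE at 0 h only had a LRH-1 peak of 0 h within 500 bp more often, at 16 of 415 (3.86%, interval 2.22 to 6.19). The corresponding shares were 0.869% with FAIRE at 4 h only and 2.22% with FAIRE at both times. For gained peaks with FAIRE at 0 h only, the shares were 4.34% within 1 kb and 14.9% within 10 kb (interval 11.7 to 18.7). The intervals within 10 kb overlap between all of these groups.

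The sites were spread over the genome, and few had another site of the same kind within 10 kb. Another site of the same kind lay within 1 kb of 34 (1.2%, interval 0.829 to 1.67) and within 10 kb of 185 (6.5%, interval 5.63 to 7.47). Within 100 kb there was one for 1269 (44.6%, interval 42.8 to 46.5). Any other LRH-1 peak at 4 h lay within 10 kb of 544 (19.1%, interval 17.7 to 20.6), against 273 of the 1266 gained peaks with FAIRE at 4 h only (21.6%, interval 19.3 to 23.9). Counted in windows of 1 Mb, the sites fell into 1244 of the 1812 windows that held a LRH-1 peak at 4 h. Of these windows, 539 had a single site, 705 had 2 or more and 133 had 5 or more. The fullest window, on chromosome 4 from 129000001 to 130000000, held 11 sites. It had 21 gained peaks in all beside 3 persistent ones, and FAIRE peaks numbered 31 at 4 h and 21 at 0 h there. The next 2 held 10 sites each, on chromosome 11 from 100000001 to 101000000 (15 gained peaks, 36 FAIRE peaks at 4 h and 29 at 0 h) and on chromosome 5 from 122000001 to 123000000 (15 gained peaks, 16 FAIRE peaks at 4 h and 18 at 0 h). The windows richest in gained LRH-1 sites without FAIRE were thus not empty of FAIRE peaks.

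By chromosome, the sites made up between 24.4% (chromosome 10, interval 20.7 to 28.5) and 37.9% (chromosome X, interval 28.1 to 48.4) of the LRH-1 peaks at 4 h, against 30.2% over all chromosomes. The interval lay wholly below that share on chromosomes 10 and 16 (24.6%, interval 20.2 to 29.4) and wholly above it on chromosome 11 (33.9%, interval 30.4 to 37.5), among 20 chromosomes. On chromosome X the counts were small, with 36 sites among 95 LRH-1 peaks, and the FAIRE lists held 379 peaks of that chromosome at 4 h and 411 at 0 h. The median gap to a FAIRE peak was 23192 bp there, against 7092 bp on chromosome 14, the lowest of all. Of the gained sites without FAIRE, 1.27% (interval 0.888 to 1.75) lay on chromosome X, against 5 of the 1266 gained peaks with FAIRE at 4 h only (0.395%, interval 0.128 to 0.919) and 13 of the 1368 persistent peaks without FAIRE (0.95%, interval 0.507 to 1.62). The share was 6 of 415 (1.45%, interval 0.532 to 3.12) for gained peaks with FAIRE at 0 h only and 20 of 971 (2.06%, interval 1.26 to 3.16) for lost peaks without FAIRE.

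**Figure D5:**
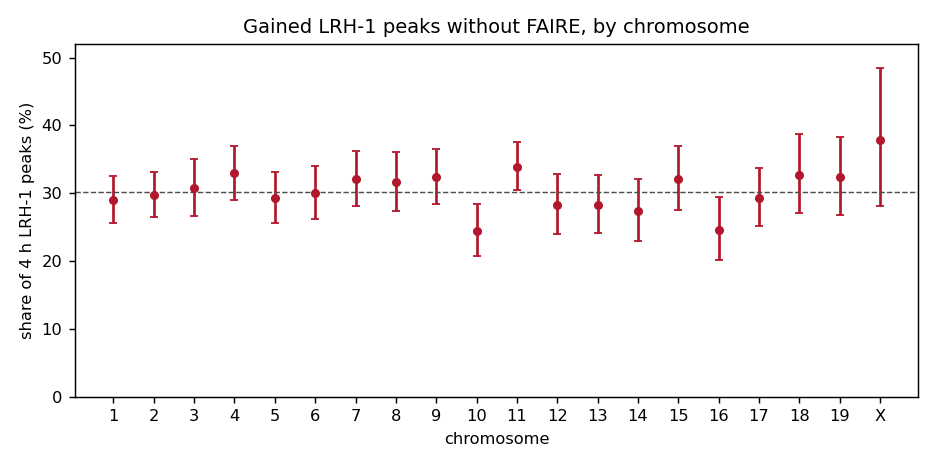
Share of LRH-1 peaks at 4 h that were gained and without FAIRE (%), by chromosome, with exact 95% binomial intervals. The dashed line marks the share over all chromosomes, 30.2%, and the points run from 24.4% on chromosome 10 to 37.9% on chromosome X.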

How the data were processed

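Granulosa cells (FAIRE) and, per the ChIP protocol, ovarian tissue (LRH-1 ChIP) were sampled 4 h and 0 h after hCG. Per the submitters' processing notes, BWA, MACS2 2.1.0 and bedtools were used with build mm9, with no roles given. The deposited FAIRE lists give a score per peak, and peak names in them start with MACS. Each peak of the deposited LRH-1 lists comes with its summit, a whole-number score, a ratio (fold enrichment) and 2 columns on a −log10 scale, for p-value and q-value. Pooling of the 2 stated replicates, controls and read depths are not given in the sources used here. Deposited RNA tables were not used.

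Overlaps, gaps (bp between edges on a chromosome) and exact intervals were computed with scipy 1.17.1, pandas 2.3.3 and numpy 2.4.6 (Python 3.11.15), and the overlaps were checked with bedtools 2.31.1. Pileup k and background b were solved from fold = (k + 1)/(b + 1) and p = P(Poisson(b) > k). This step was chosen after the data were seen and tested on simulated data. Scaling to 0 h multiplied by the ratio of lowest backgrounds. Sites named were the 10 best by −log10 q, the 5 farthest from and closest to a FAIRE peak, the 5 gained peaks with the smallest FAIRE overlap and the 3 fullest 1 Mb windows. Sites named for background or width were chosen after their values were seen. The members and lists were chosen with earlier results of these data known.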

Additional observations from a re-analysis of the deposited data

How the results depend on the processing

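The number of gained sites without FAIRE, their share of gained peaks, their median fold enrichment, the share over 10 kb from FAIRE and the share within 10 kb of a LRH-1 peak of 0 h were recomputed under 7 alternatives, 1 of them (FAIRE peaks widened by 2000 bp) chosen after the data were seen. Of 35 values, 22 stayed within the interval of the reported value (for the number, within 1.5 times it), and 13 did not. With FAIRE peaks widened by 500 bp a side, the share without FAIRE was 48.7% and the share over 10 kb away 55.4%. Under both widenings of FAIRE peaks, the 10 kb were counted from the widened edges. Widened by 2000 bp, the 2 shares were 43.4% and 57.4%, with 11% near a LRH-1 peak of 0 h and a median fold of 5.02. With the better-scoring part of each FAIRE list (50% of it), the shares were 68.7% and 70.5%. With as many of the best LRH-1 peaks at 4 h as the list at 0 h holds (5886), 1274 sites were left, 46.7% of gained peaks, with a median fold of 5.67; fewer weak peaks enter there by construction. The share near a LRH-1 peak of 0 h was 15.5% when the summit had to lie in the other peak and 11.8% when peaks of 0 h were widened by 500 bp. Leaving out chromosome X moved none of the 5 values outside its interval. The 846 sites with a pileup above what the list at 0 h would have missed became 187 and 32 when the entry was raised to the lower 10.0% point and to the median of −log10 p at 0 h, also added after the data were seen. No paired analysis was possible because each assay and time has 1 list. The planned motif share was not run, since no mm9 sequence was used here. FAIRE depth is unknown, so a missing FAIRE peak can also be one that was not detectable.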

Other observations

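A few of the gained LRH-1 sites without FAIRE stood in regions of high background, and these were chosen after their values were seen. A background above 8 reads was found at 13 of the 2844 sites and at 10 of the 2629 gained peaks with FAIRE. The highest belonged to a pair of neighbours on chromosome 19, from 5795047 to 5795432 with 37 reads over a background of 12 (2.93-fold) and from 5794695 to 5794942 with 35 reads over 11.4 (2.89-fold). Both lay within 2 kb of a FAIRE peak of 0 h and of a LRH-1 peak of 0 h. Their pileups were above the median of 20 reads although their fold enrichment was among the lowest of all sites. The widest sites were that on chromosome 2 from 75481117 to 75482273 (1157 bp, 52 reads), one on chromosome 1 from 65049655 to 65050598 (944 bp, 50 reads over a background of 10.8) and one on chromosome 9 from 63774564 to 63775343 (780 bp, 31 reads).

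The FAIRE peaks nearest to the sites, at any distance, had scores close to those of their lists. Where the nearest FAIRE peak was of 4 h, its score had a median of 75.5, against 71.4 over that list, and where it was of 0 h, 70.1 against 70.5. Within 1 kb, the median was 81.3 for 165 sites next to a FAIRE peak of 4 h, above the 71.4 of that list. For 137 sites next to a FAIRE peak of 0 h it was 68.5, below the 70.5 of that list.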
